A study of Arabidopsis thaliana with 12 samples.

Results

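Of 13513 probe sets of the Arabidopsis ATH1 array that name exactly 1 gene, 18 had every value with sucrose well above every untreated value in both lines studied. The genes were selected on measured values, the deposited intensities of all 12 arrays: a gene was taken when its lowest intensity over the 6 sucrose arrays was at least 50 and at least 2.5 times its highest intensity over the 6 untreated arrays. Both thresholds were passed by 66 probe sets, of which 27 name 1 gene, 2 name several and 37 name none in the annotation used here. Genes that had been listed by name, most of them of anthocyanin, starch and glyoxylate metabolism, and symbols beginning CYP, MYB, WRKY, UGT or GST, were left out, which removed 9 of the 27. Because the selection used every sucrose and untreated value, the distance between the media is described below without a test. Differences between the lines were tested, with a limit that the selection sets: all sucrose arrays of both lines had to clear all untreated arrays of both lines. Genes that switch in 1 line only, or whose line difference closed that distance, could therefore not enter. The rule set no upper limit with sucrose and no lower limit untreated, so the lines could still differ in level. The line tests use the same 12 values per gene.

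RNA came from whole Arabidopsis thaliana seedlings of 2 lines, 3 arrays per group. The acn1-2 line carries a T-DNA insertion in AT3G16910, which encodes ACN1, an enzyme that activates acetate, and Col-7 is the accession given for both lines. The 4 groups were acn1-2 with 100 mM sucrose, Col-7 with 100 mM sucrose, acn1-2 untreated and Col-7 untreated. Every group grew on agar with half-strength MS salts at pH 5.7, at 20 °C under continual light, after 4 days at 4 °C in the dark. The labels give growth stage 0.70 for all arrays, but neither an age in days nor how long sucrose was present, and acn1-2 is a single insertion line. AT3G16910 had no probe set under its name, so the insertion could not be checked in these values. The design note speaks of 3 pools of 1000 seedlings and does not say that they were separate cultures, so the p-values below measure the spread between these arrays, which may be technical. In RNA of whole seedlings, fewer cells of a type and less RNA per cell cannot be told apart.

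Sugars act in plants both as fuel and as signals. A supply of sucrose is known to raise transcripts for storage, carbohydrate use and stress proteins and to lower transcripts for photosynthesis. Sucrose in the medium is also an osmotic load, and no osmotic control medium is among the groups, so the sugar and the osmotic load cannot be told apart in these arrays. The annotation used here gives a product name for only 1 of the 18 genes, scpl35. The protein families named for the other loci are background knowledge of Arabidopsis genes and do not come from these files.

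The intensities are linear values that the authors had scaled to the same trimmed mean on each array, and a value belongs to 1 probe set, so levels of different genes are not compared. Mean intensities of the 18 genes with sucrose spanned 63.4 to 752 in acn1-2 and 64.5 to 812 in Col-7, and untreated means spanned 4.87 to 185 in acn1-2 and 4.73 to 192 in Col-7. The ratio of the lowest sucrose array to the highest untreated array had a median of 2.85 and reached 4.19, in scpl35, among genes with an untreated value above the floor defined below. Untreated levels were not all dim: the median probe set of an array read 41.0 to 47.2. On the log2 scale, sucrose minus untreated had a median of 2.21 over the 18 genes in acn1-2 (range 1.76 to 3.91) and of 2.04 in Col-7 (range 1.53 to 2.74). For that scale intensities under 14.4 were set to 14.4, the level called the floor here. All 6 untreated arrays of 1 gene lay at the floor and 4 other genes had at least 1 untreated array there, so for these 5 the size of the difference depends on the floor. For the remaining 13 genes no array was at the floor.

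**Figure D1:**
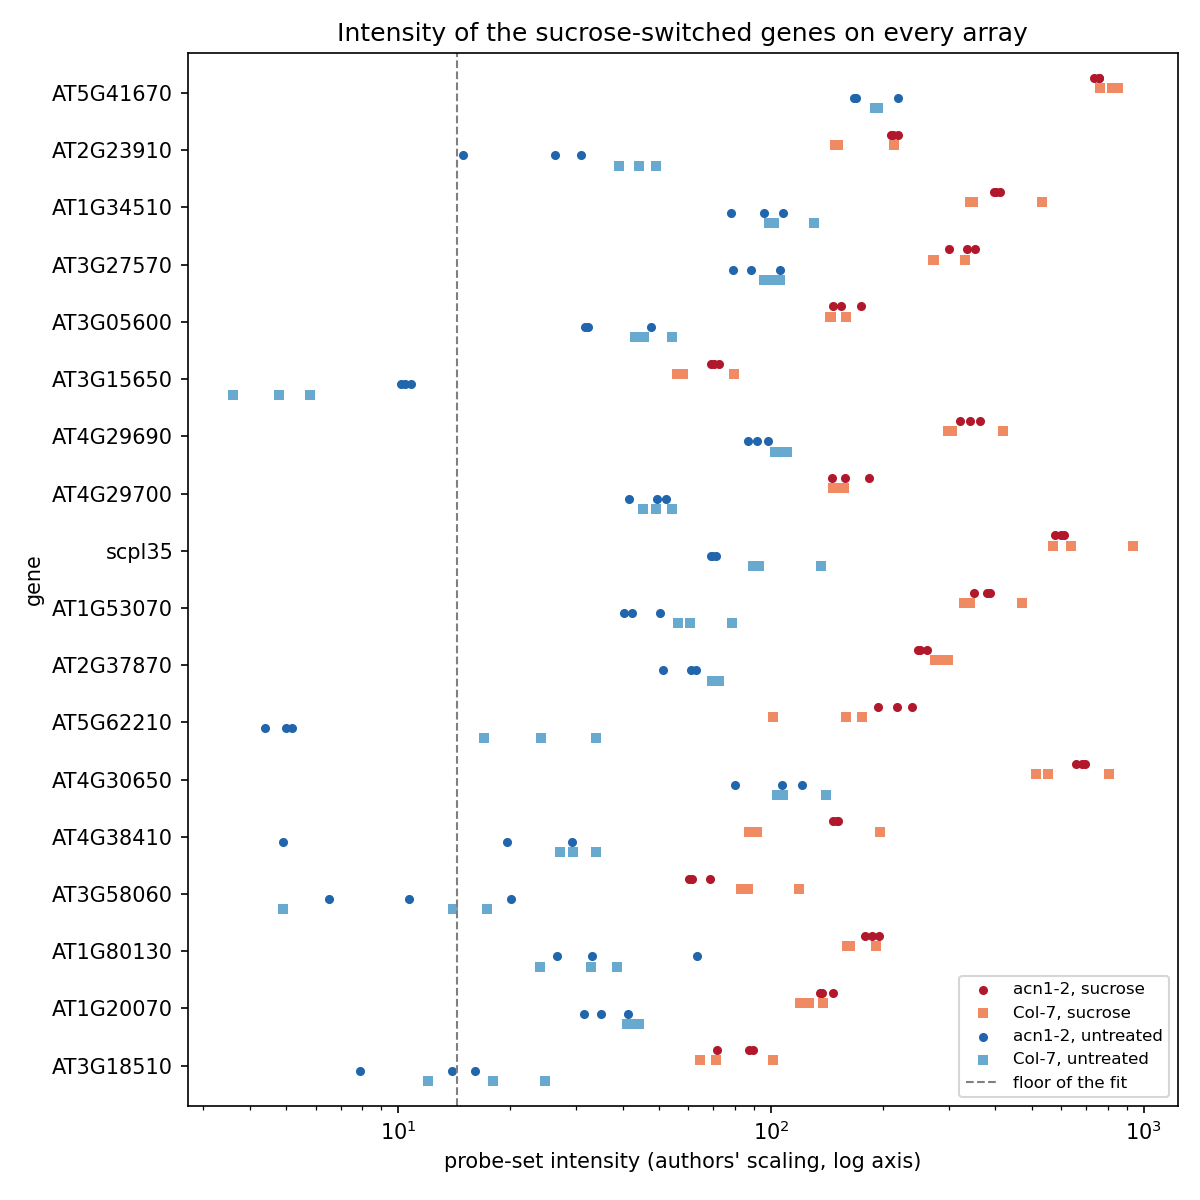
Probe-set intensity of each of the 18 genes on each of the 12 arrays, on a log axis. Points are single arrays, coloured by line and medium, and the dashed line is the floor at 14.4. The 6 sucrose arrays of every gene lie to the right of its 6 untreated arrays, which is how the genes were chosen.

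The thresholds cut through a continuous range. Just inside the ratio threshold lay AT1G80130 at 2.52, AT4G38410 at 2.57 and AT3G27570 at 2.58, and just outside it lay XTH26 at 2.47, AT5G61290 at 2.46 and AT1G21440 at 2.44. Just inside the level threshold, the lowest sucrose array read 56.0 for AT3G15650, 60.2 for AT3G58060 and 64.4 for AT3G18510. Just outside it read 49.7 for AT4G02360, 47.6 for AT1G64450 and 45.2 for AT5G64150. Without replicate 3 of untreated Col-7, the same thresholds would have taken 28 genes.

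Among the metabolic enzymes was AT5G41670, a 6-phosphogluconate dehydrogenase of the oxidative pentose phosphate pathway, which supplies NADPH and pentose phosphates. With sucrose it read 760.1, 758.5 and 736.7 in acn1-2 and 821.2, 764.6 and 850.4 in Col-7. Untreated, it read 169.2, 219.6 and 166.8 in acn1-2 and 191.0, 190.0 and 193.9 in Col-7. Its sucrose minus untreated difference was 2.03 in acn1-2 and 2.08 in Col-7 on the log2 scale, close in the 2 lines, and the difference between the lines in this quantity was -0.05 (95% interval -0.39 to 0.29). Its acn1-2 values with sucrose all lay below those of Col-7, by less than 10 intensity units at the nearest pair of arrays, while the untreated groups overlapped.

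The other 2 genes of 6-phosphogluconate dehydrogenases, AT3G02360 and AT1G64190, are no members and rose by smaller amounts in the limma fit across all probe sets. AT3G02360 rose by 0.53 on the log2 scale in acn1-2 (SE 0.09, limma adjusted p = 0.00019) and by 0.61 in Col-7 (SE 0.09, adjusted p = 7.2e-05). AT1G64190 rose by 0.94 in acn1-2 (SE 0.17, limma adjusted p = 0.00038) and by 0.81 in Col-7 (SE 0.17, adjusted p = 0.0013). The rise of AT5G41670 itself was fixed by the selection, so only these 2 bear on the family, where 27.4% of all tested probe sets rose in acn1-2 and 25.9% in Col-7. The 3 were the only loci named in the annotation among 16 listed for hexose phosphate and anaplerotic metabolism, and no line difference of the 3 passed the test.

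AT2G23910, an NAD(P)-binding protein related to cinnamoyl-CoA reductases, showed one of the widest gaps between the lines. With sucrose it read 212.5, 209.5 and 218.7 in acn1-2 and 148.9, 151.6 and 213.9 in Col-7. Untreated, it read 26.3, 30.9 and 14.9 in acn1-2 and 39.1, 44.2 and 49.1 in Col-7. The untreated acn1-2 arrays all lay below the untreated Col-7 arrays, while the sucrose groups overlapped through the third Col-7 array.

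AT1G34510 belongs to the class III peroxidases, secreted enzymes of the cell wall. It read 397.5, 411.7 and 402.1 with sucrose in acn1-2 and 341.7, 348.0 and 533.8 in Col-7, against 95.9, 108.0 and 78.1 untreated in acn1-2 and 102.0, 98.8 and 130.0 in Col-7. AT3G27570, of a sucrase and ferredoxin-like family, read 335.4, 352.2 and 299.5 with sucrose in acn1-2 and 272.3, 274.4 and 332.2 in Col-7, against 105.6, 88.1 and 79.0 untreated in acn1-2 and 95.5, 101.8 and 105.6 in Col-7. The lines overlapped in both media for each of these genes.

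Hydrolase families made up 5 of the 18 genes, the alkaline-phosphatase-like pair included. AT3G05600, an epoxide hydrolase-like protein, read 174.6, 154.3 and 146.3 with sucrose in acn1-2 and 158.7, 144.8 and 144.2 in Col-7. Untreated, it read 32.3, 31.6 and 47.6 in acn1-2 and 45.7, 43.1 and 54.4 in Col-7, and the lines overlapped in both media. AT3G15650, of the alpha/beta hydrolase family, was the only gene of the 18 with all untreated values below the floor. It read 68.9, 70.4 and 72.7 with sucrose in acn1-2 and 57.9, 56.0 and 79.6 in Col-7, against 10.4, 10.2 and 10.8 untreated in acn1-2 and 3.6, 5.8 and 4.8 in Col-7. Values below the floor have no order, and the lines overlapped with sucrose. The gene was at least 4.91-fold higher with sucrose in acn1-2 and at least 4.42-fold higher in Col-7.

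AT4G29690 and AT4G29700, both alkaline-phosphatase-like, are neighbours with no gene between them on chromosome 4. AT4G29690 read 321.2, 364.7 and 342.6 with sucrose in acn1-2 and 299.2, 305.2 and 418.4 in Col-7, against 98.1, 91.7 and 86.6 untreated in acn1-2 and 110.3, 102.2 and 106.6 in Col-7. AT4G29700 read 145.9, 182.8 and 157.5 with sucrose in acn1-2 and 147.3, 146.2 and 156.6 in Col-7, against 52.4, 49.3 and 41.7 untreated in acn1-2 and 45.4, 49.2 and 54.3 in Col-7. The lines overlapped in both media, except that untreated AT4G29690 was lower on every acn1-2 array. The pair had sucrose minus untreated differences of similar size, 1.90 and 1.76 in acn1-2 and 1.66 and 1.60 in Col-7. The gene on the other side of AT4G29690, AT4G29680, was looked up after these values were seen, and it rose by 0.95 in acn1-2 (SE 0.10, limma adjusted p = 8.1e-06) and by 0.96 in Col-7 (SE 0.10, adjusted p = 9.9e-06). It is a smaller step than that of either member. A probe set of a tandem gene can also bind a neighbour's transcript, which was not tested.

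The last of the hydrolases is serine carboxypeptidase-like 35, scpl35, of a family that holds both peptidases and acyltransferases of secondary metabolism. It read 577.0, 611.4 and 597.9 with sucrose in acn1-2 and 570.1, 638.1 and 932.8 in Col-7, against 69.4, 71.2 and 69.1 untreated in acn1-2 and 89.3, 92.9 and 135.9 in Col-7. The untreated acn1-2 arrays lay below all untreated Col-7 arrays, and the sucrose groups overlapped. Of 28 other genes named for this family 15 were tested: in acn1-2, 6 rose, 2 fell and 7 missed the threshold, and in Col-7 the counts were 6, 1 and 8. Over all tested probe sets 27.4% rose and 29.6% fell in acn1-2, and 25.9% rose and 24.3% fell in Col-7. In acn1-2 only 4 rose without replicate 2 of acn1-2 with sucrose, 1 fell without replicate 1 or without replicate 2 of it, and in Col-7 the count that fell was 2 to 3 without replicate 2 or 3 of untreated acn1-2 or replicate 3 of untreated Col-7. Their median difference was -0.01 in acn1-2 and 0.13 in Col-7, beside -0.04 and 0.00 over all tested probe sets, and the largest was that of scpl50 at 1.70 in acn1-2 and 1.63 in Col-7. The family was looked up after these values were seen.

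Lectin, lipid-transfer and embryo-specific protein families gave 3 of the genes, and no line difference of these 3 passed the test. AT1G53070, of the legume lectins, which bind sugars, read 350.6, 386.2 and 379.4 with sucrose in acn1-2 and 329.3, 341.5 and 470.4 in Col-7, against 42.4, 50.4 and 40.4 untreated in acn1-2 and 60.7, 56.4 and 78.7 in Col-7. AT2G37870, a small lipid-transfer protein, read 250.5, 262.2 and 248.2 with sucrose in acn1-2 and 291.3, 299.1 and 275.9 in Col-7, against 61.1, 51.3 and 62.8 untreated in acn1-2 and 72.6, 71.6 and 69.3 in Col-7. The values of AT1G53070 overlapped between the lines with sucrose and lay lower in untreated acn1-2, and those of AT2G37870 lay lower in acn1-2 in both media.

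AT5G62210, of the embryo-specific protein 3 family, was the only gene of the 18 whose lines were apart in opposite directions in the 2 media. It read 193.8, 217.7 and 239.3 with sucrose in acn1-2 and 175.2, 158.6 and 101.4 in Col-7. Untreated, it read 5.2, 5.0 and 4.4 in acn1-2, all below the floor, and 24.2, 17.0 and 33.9 in Col-7. It was therefore at least 15.0-fold higher with sucrose in acn1-2, and it was 5.87-fold higher in Col-7. Untreated, it was at least 1.67-fold lower in acn1-2 than in Col-7.

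Both members of families named for cold, salt or drought belong to small proteins. AT4G30650, of the low-temperature and salt responsive family of small membrane proteins, read 659.9, 683.9 and 697.2 with sucrose in acn1-2 and 552.6, 512.3 and 804.8 in Col-7, against 107.1, 80.1 and 121.2 untreated in acn1-2 and 107.7, 103.9 and 140.2 in Col-7. AT4G38410, a dehydrin, one of the hydrophilic proteins that build up in drying cells, read 146.9, 150.9 and 150.7 with sucrose in acn1-2 and 87.1, 91.9 and 196.1 in Col-7, against 4.9, 19.6 and 29.3 untreated in acn1-2 and 33.9, 29.4 and 27.2 in Col-7. The lines overlapped in both media for both genes, and replicate 3 of Col-7 with sucrose in the dehydrin gene was far above its other 2. AT4G30660, the gene beside AT4G30650, was looked up after these values were seen and rose by 1.72 in acn1-2 (SE 0.16, limma adjusted p = 2.1e-06) and by 1.31 in Col-7 (SE 0.16, adjusted p = 2.5e-05).

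AT3G58060, a metal transporter of the cation efflux family, was one of 3 genes with the smaller step in acn1-2. It read 68.6, 60.2 and 61.3 with sucrose in acn1-2 and 83.2, 87.0 and 119.0 in Col-7, against 6.5, 20.1 and 10.7 untreated in acn1-2 and 4.9, 17.3 and 14.0 in Col-7. Every acn1-2 array with sucrose lay below every Col-7 array with sucrose, and most untreated values were below the floor. AT1G80130, a tetratricopeptide-repeat-like protein, read 186.8, 194.4 and 179.1 with sucrose in acn1-2 and 159.8, 162.7 and 191.0 in Col-7, against 26.6, 33.1 and 63.3 untreated in acn1-2 and 24.0, 38.5 and 32.9 in Col-7. Replicate 3 of untreated acn1-2 was far above the other 2 and set its place next to the ratio threshold, and the lines overlapped in both media.

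The remaining genes, AT1G20070 and AT3G18510, are named by locus only and no role is given for them. AT1G20070 read 135.4, 137.2 and 146.6 with sucrose in acn1-2 and 119.8, 137.9 and 126.1 in Col-7, against 34.9, 31.5 and 41.4 untreated in acn1-2 and 41.1, 42.7 and 44.2 in Col-7. AT3G18510 read 87.5, 71.6 and 89.4 with sucrose in acn1-2 and 71.4, 64.4 and 101.0 in Col-7, against 16.1, 13.9 and 7.9 untreated in acn1-2 and 12.0, 24.8 and 17.9 in Col-7. The lines overlapped in both media for both genes. The 18 genes lie on all 5 nuclear chromosomes, with 5 of them on chromosome 3, where the insertion is. The nearest of these to AT3G16910, AT3G15650, has 135 genes between it and the insertion.

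The first comparison of lines asked whether the genes reached a different level in acn1-2 than in Col-7 with sucrose. None of the 18 passed an adjusted p of 0.05 in the limma fit across 13764 probe sets (0 of 18, against 0.211% of all tested probe sets). At an unadjusted p under 0.05 there were 2, against 4.78% of all tested, with AT5G62210 higher (1 of 18, against 2.22%) and AT3G58060 lower in acn1-2 (1 of 18, against 2.56%). AT5G62210 averaged 217 ± 23 in acn1-2 and 145 ± 39 in Col-7 (SD, n = 3 each), a log2 difference of 0.61 (95% interval 0.12 to 1.11, limma adjusted p = 0.84). Without replicate 3 of Col-7 with sucrose that difference was 0.37. AT3G58060 averaged 63.4 ± 4.6 in acn1-2 and 96.4 ± 19.7 in Col-7 (SD, n = 3 each), a log2 difference of -0.59 (95% interval -0.94 to -0.24, limma adjusted p = 0.42). The median difference of the 18 was 0.10, beside 0.00 for all tested probe sets, and 13 of 18 were above 0, against 50.2% of all tested. The 18 genes share the same arrays, so such counts are not of separate observations. Their log2 median on an array had a within-group SD of 0.15, larger than the median difference. This SD is a spread of single arrays, while the difference is between means of 3 arrays. The same holds for the SDs given with the next comparisons, and none of them serves as a test. For 17 of the 18 the 95% interval lay within 1 log2 unit either side of 0, so larger differences between the lines lay outside the interval for each of these genes. Without overlap between the lines, AT5G62210 was higher in acn1-2 (1 of 18, against 7.11% of all tested), and AT2G37870, AT3G58060 and AT5G41670 were lower (3 of 18, against 7.11%).

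The second comparison asked the same of untreated seedlings, where the genes are at their low level. Again 0 of 18 passed the adjusted threshold in limma, against 0.545% of all tested probe sets. The median difference was -0.24, beside 0.03 over all tested, and 15 of 18 genes were below 0, against 44.4% of all tested. As above, the genes share these arrays, and the within-group SD of their log2 median on an array was 0.12. At an unadjusted p under 0.05 there were 7, against 14.4% of all tested, and all 7 were lower in acn1-2, against 6.58% lower of all tested: AT2G23910, AT1G53070, AT5G62210, scpl35, AT2G37870, AT3G05600 and AT1G20070. Of the 18 genes 5 had at least 1 untreated array at the floor, AT5G62210 among them with all 3 of acn1-2. Their differences depend on the floor. These 5 passed the filter on dim probe sets through their sucrose arrays, so the shares of all tested are no matched background for them. AT2G23910 came nearest to the threshold, with 24.0 ± 8.2 in acn1-2 and 44.1 ± 5.0 in Col-7 (SD, n = 3 each), a log2 difference of -0.94 (95% interval -1.42 to -0.45, limma adjusted p = 0.10). It passed, at a limma adjusted p of 0.048, without the second untreated acn1-2 array, and over all the alternatives its adjusted p ran between 0.038 and 0.36. Without the third untreated acn1-2 array, which read 14.9, near the floor, its difference was -0.62. The lectin gene AT1G53070 averaged 44.4 ± 5.3 in acn1-2 and 65.3 ± 11.8 in Col-7 (SD, n = 3 each; log2 difference -0.55, limma adjusted p = 0.16). The scpl35 gene averaged 69.9 ± 1.1 in acn1-2 and 106 ± 26 in Col-7 (SD, n = 3 each; log2 difference -0.57, limma adjusted p = 0.19), and without replicate 3 of untreated Col-7 the difference was -0.38. Without overlap between the lines, 6 genes were lower in acn1-2 (7.98% of all tested) and 0 were higher (9.95% of all tested), and the 6 were AT1G53070, AT2G23910, AT2G37870, AT4G29690, AT5G62210 and scpl35.

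**Figure D2:**
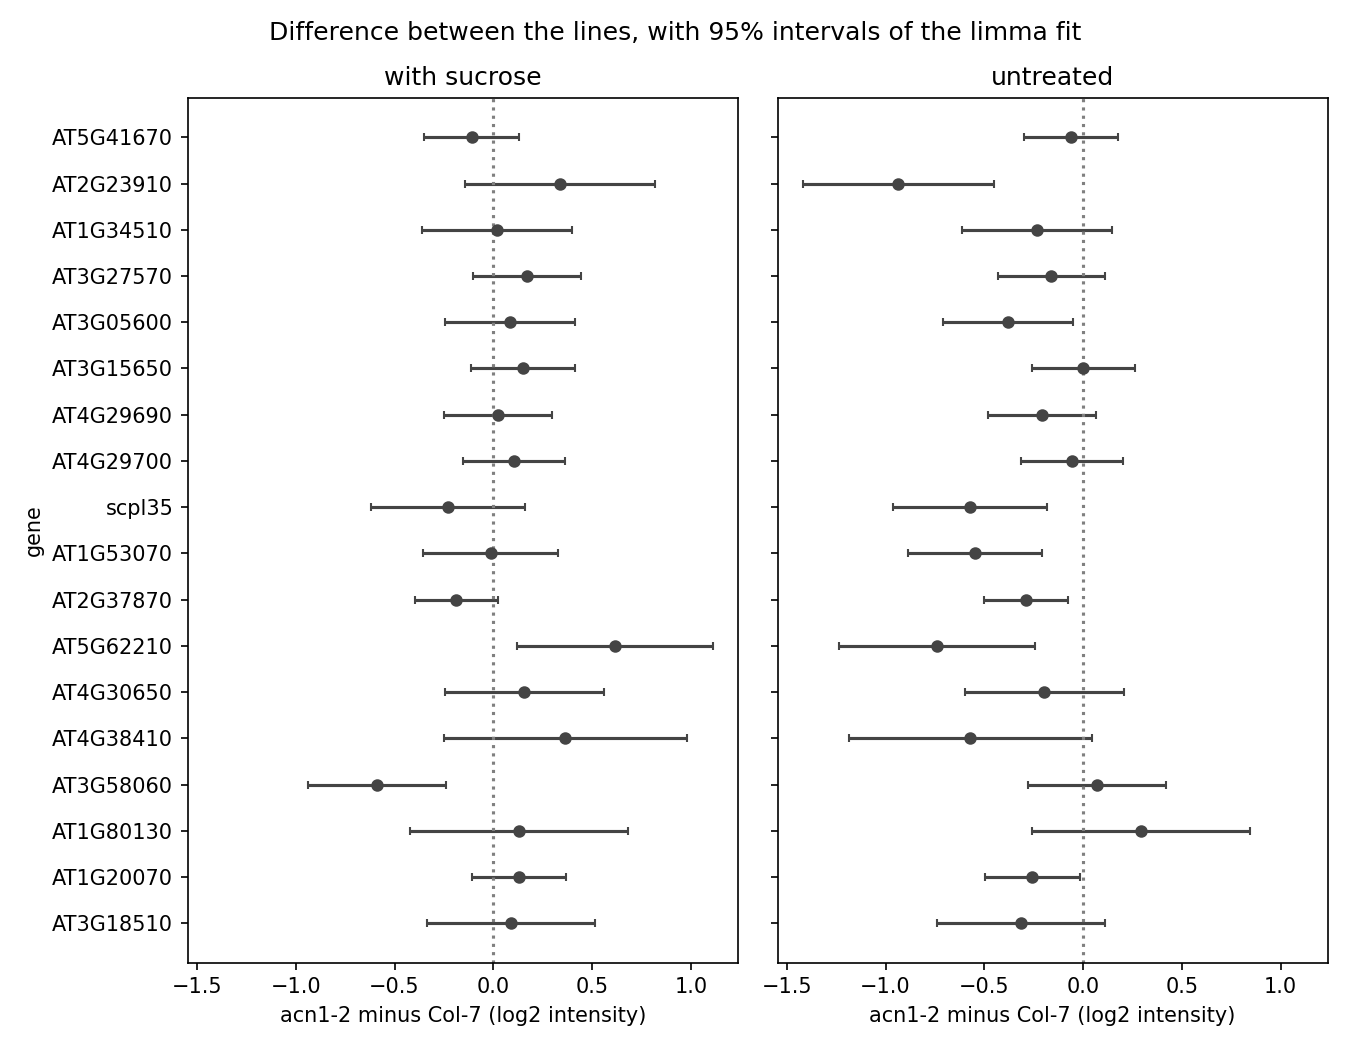
Difference between acn1-2 and Col-7 in log2 intensity for each of the 18 genes, with sucrose on the left and untreated on the right. Points are fitted differences over 3 arrays per group and bars are 95% intervals of the limma fit. With sucrose 16 of the intervals include 0, and untreated 11 do.

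The third comparison asked whether the step between media differed between the lines, as the sucrose minus untreated difference in acn1-2 minus that in Col-7. No gene of the 18 passed in limma (0 of 18, against 0.0581% of all tested), and 6 had an unadjusted p under 0.05, against 10.0% of all tested. Of these 6, the step was larger in acn1-2 for 5 (4.66% of all tested) and smaller for 1 (5.37%). The step was the larger one in acn1-2 for 15 of the 18, against 46.3% of all tested, and the median of the difference was 0.34, beside -0.02 over all tested. These genes too share the arrays, and the within-group SD of their log2 median on an array was 0.14. For 5 of the 18 the floor sets part of the step. AT5G62210 was at least 15.0-fold higher with sucrose in acn1-2, where all untreated values were at the floor, and 5.87-fold higher in Col-7. Its fitted difference of 1.35 (SE 0.32, limma adjusted p = 0.25) was therefore set by the floor, and it was 2.92 without a floor, with an adjusted p of 0.0033. No array of AT2G23910 was at the floor, but replicate 3 of untreated acn1-2, at 14.9, lay just above it. The gene's step was 3.22 in acn1-2 and 1.94 in Col-7 on the log2 scale (difference 1.27, SE 0.32, limma adjusted p = 0.27). Without that array the difference was 0.96. For the dehydrin gene AT4G38410 the step was 2.89 in acn1-2 and 1.95 in Col-7 (difference 0.93, SE 0.40, limma adjusted p = 0.46), with 1 untreated acn1-2 array at the floor. In the other direction, the step of AT3G58060 was 1.97 in acn1-2 and 2.64 in Col-7 (difference -0.66, SE 0.23, limma adjusted p = 0.37), but 2 of 3 untreated arrays in each line were at the floor, which sets these sizes. The comparison of steps is built from the same arrays as the first and the second, so the 3 are not separate pieces of evidence.

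**Figure D3:**
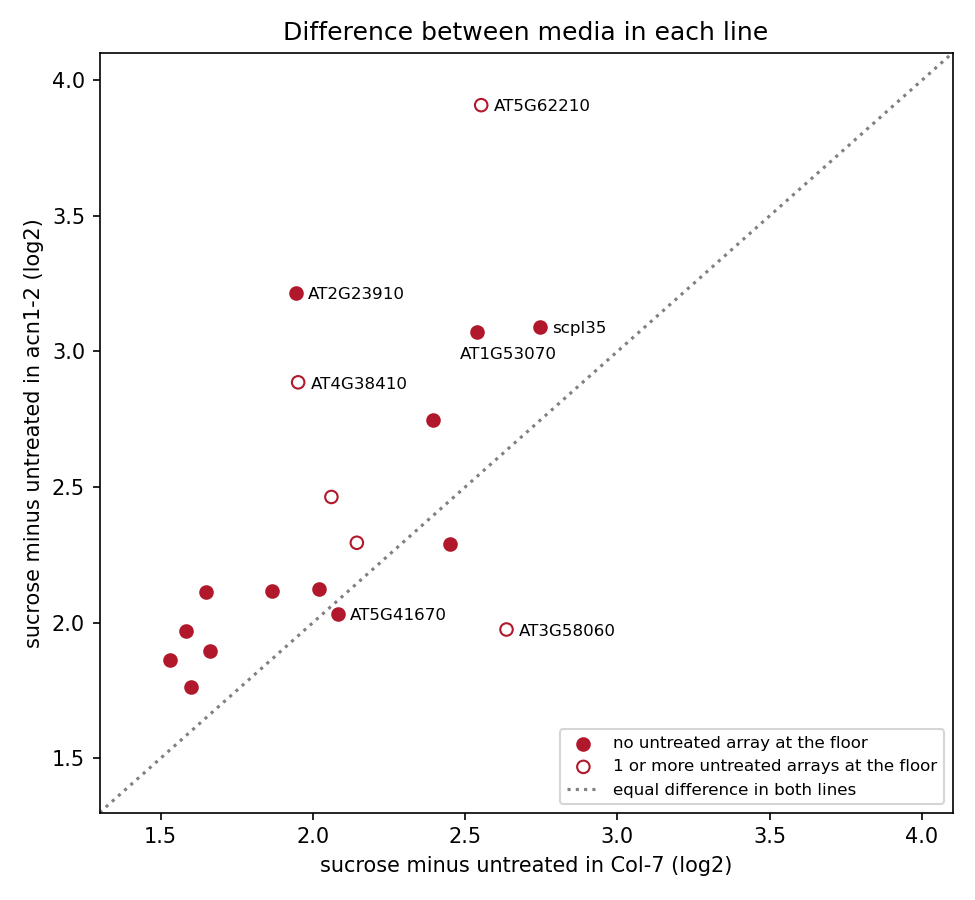
Sucrose minus untreated difference in log2 intensity for each of the 18 genes, acn1-2 on the vertical axis and Col-7 on the horizontal axis. Open points have at least 1 untreated array at the floor, and the dotted line marks equal differences. Above the line lie 15 genes, with AT5G62210 and AT2G23910 farthest from it, and AT3G58060 is the farthest below it.

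The line comparisons rest on arrays of unequal steadiness. Among the 18 genes the median coefficient of variation was 4.20% for acn1-2 with sucrose and 20.4% for Col-7 with sucrose, against 6.57% and 9.28% over all tested probe sets. Untreated, it was 15.4% for acn1-2 and 14.0% for Col-7, against 12.1% and 9.16% over all tested. The third Col-7 sucrose array gave the highest value of its group for 14 of the 18 genes, against 38.4% of all tested probe sets. The median deviation of that array from the group mean was 0.32 on the log2 scale, and that of each of the other 2 arrays was -0.13. That array also had a green-leaf marker sum of 3224, against 4717 and 4628 on the other 2, and a seed marker sum of 158.9, against 98.4 and 107.5. The part of these markers in the result was not tested. Without that array, 11 of the 18 genes lay above Col-7 in acn1-2 with no overlap (16.5% of all tested) and 3 lay below (18%), and still 0 passed in limma. Without the third untreated acn1-2 array, which stood farthest from its group over all probe sets, 9 genes were lower in untreated acn1-2 with no overlap, against 12.1% of all tested.

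**Figure D4:**
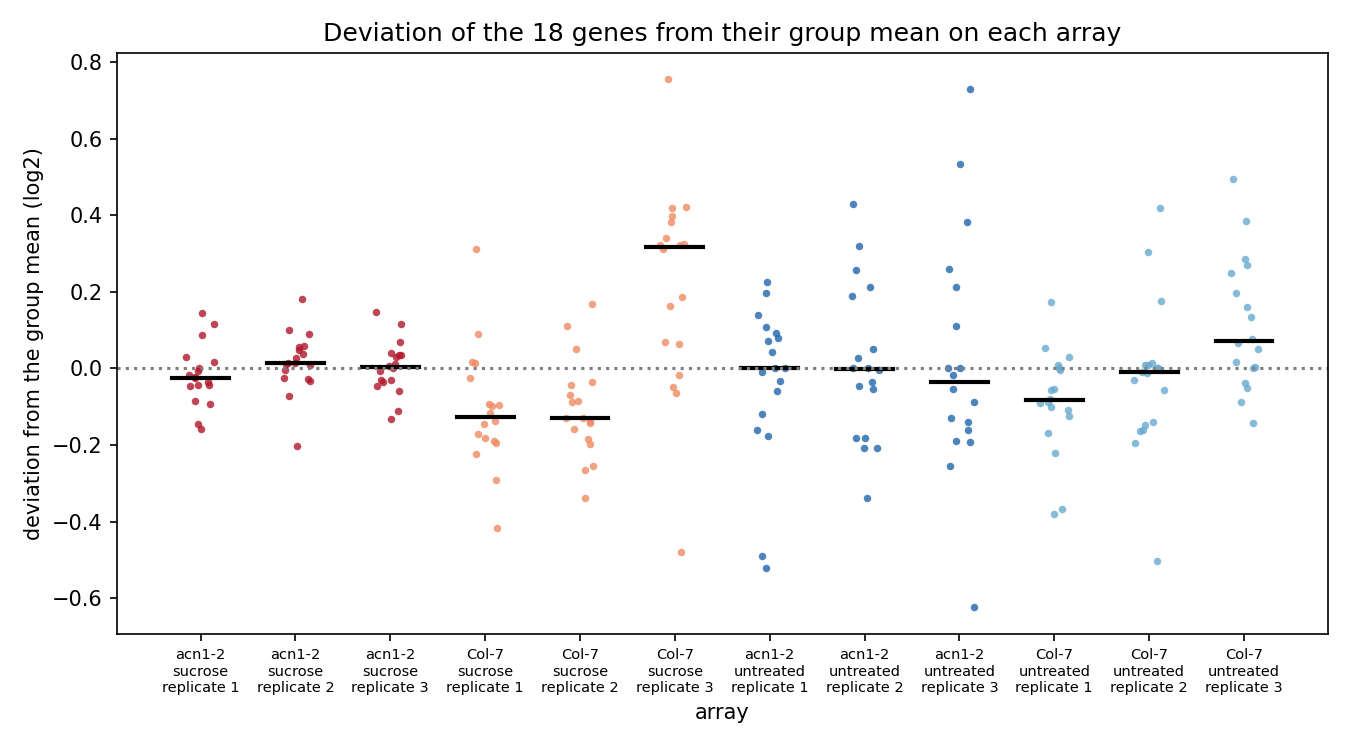
Deviation of each of the 18 genes from its group mean in log2 intensity on each array. Points are genes and black bars are medians over the 18. The third Col-7 sucrose array has its median at 0.32, and the acn1-2 sucrose arrays are the tightest.

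Other measures moved with the media beside the 18 genes. The green-leaf markers fell in both lines (3 of 3 named, of 11 listed), and their summed intensity was 4000 to 4146 with sucrose and 6511 to 10871 untreated in acn1-2, and 3224 to 4717 with sucrose and 8029 to 8813 untreated in Col-7. Beside these and the marker counts below, 27.4% of all tested probe sets rose and 29.6% fell in acn1-2, and 25.9% rose and 24.3% fell in Col-7. Of the root markers 2 of 3 named (12 listed) rose in each line, with sums of 2956 to 3329 with sucrose and 2270 to 3790 untreated in acn1-2, and 2876 to 2983 with sucrose and 2966 to 3271 untreated in Col-7. These sums are mostly PYK10, which averaged 2719 over the 12 arrays and was not called in either line. They therefore do not show the rise of the other 2, EXPA18 and EXPA7, which averaged 256 and 138. Of the seed markers 1 of 2 named (10 listed) rose in each line, with sums of 77.6 to 95.6 with sucrose and 41.6 to 62.9 untreated in acn1-2, and 98.4 to 158.9 with sucrose and 62.7 to 67.9 untreated in Col-7. The call of the root marker EXPA7 was lost in acn1-2 without any 1 of 7 arrays (the 3 of untreated Col-7, replicates 1 and 3 of acn1-2 with sucrose, replicates 1 and 2 of untreated acn1-2). It was also lost there with no filter and with the scanner background of the arrays as a covariate. In Col-7 it was lost without replicate 3 of Col-7 with sucrose. The root marker PYK10 changed direction in acn1-2 between alternatives. It fell by -0.39 without replicate 2 of untreated acn1-2 (limma adjusted p = 0.0076) and rose by 0.27 with quantile normalization (limma adjusted p = 0.017). None of these markers was at 0 in any group. The actin control's ratio of 3-prime to 5-prime signal, a sign of RNA quality, was 5.32 to 6.93 on sucrose arrays and 1.81 to 3.42 on untreated arrays, without overlap. For GAPDH it was 0.819 to 0.920 with sucrose and 0.958 to 1.45 untreated, also without overlap but lower with sucrose. For ubiquitin it was 1.86 to 2.00 with sucrose and 1.92 to 2.60 untreated, with overlap. The controls thus did not move one way between the media. The part of organ makeup and RNA quality in the level of the 18 genes was not tested.

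Sugar transport genes listed beside the 18 did not move one way. Of 19 listed loci 7 are named in the annotation and 6 were tested, of which 3 rose and 3 fell in each line, where 27.4% of all tested probe sets rose and 29.6% fell in acn1-2 and 25.9% rose and 24.3% fell in Col-7. SAG29, a sucrose exporter of the SWEET family, rose by 1.61 in acn1-2 and 1.45 in Col-7 on the log2 scale (SE 0.18 each, limma adjusted p = 8.7e-06 and 2.5e-05). The tonoplast sugar carriers TMT2, at 0.58 in acn1-2 and 0.76 in Col-7, and TMT1, at 0.30 and 0.41, rose less. TMT1 did not pass in acn1-2 without replicate 1 or 3 of acn1-2 with sucrose or replicate 1 of untreated acn1-2 (adjusted p 0.057 to 0.062 in limma). SWEET2 fell in both lines, with a difference of -2.5 in acn1-2 and -2.48 in Col-7 (SE 0.15 each, limma adjusted p = 5.6e-08 and 9.3e-08). SWEET11, which exports sucrose towards the phloem, and SWEET1 fell as well, with -2.29 and -0.68 in acn1-2 and -1.97 and -0.39 in Col-7. The median of the 6 was -0.19 in acn1-2 and 0.01 in Col-7, and none passed between the lines. Of 17 loci listed for abscisic acid and osmotic responses only COR47, a dehydrin, could be tested, and it did not pass (0.18 in acn1-2, -0.03 in Col-7). Without replicate 3 of untreated acn1-2 it passed in acn1-2, with 0.24 and a limma adjusted p of 0.0495. It also passed there with array weights (0.20, limma adjusted p = 0.043). Without replicate 3 of both untreated acn1-2 and Col-7 sucrose it passed as well (0.24, limma adjusted p = 0.039). Of 18 jasmonate loci 2 are named and 0 were tested, and of 23 loci for phosphate starvation and 21 for nitrogen assimilation 0 are named.

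The 18 genes were also set beside the other 48 probe sets that passed both thresholds, which are left out by name or name no single gene. In these 48 the median of acn1-2 minus Col-7 was 0.09 with sucrose and -0.30 untreated, beside 0.10 and -0.24 in the 18. Of the 48, 0 passed in limma between the lines with sucrose, 9 untreated and 4 in the difference of the steps, beside 0, 0 and 0 of the 18. Over all tested probe sets 0.211%, 0.545% and 0.0581% passed. Above 0 were 33 of the 48 with sucrose and 44 in the difference of the steps, against 50.2% and 46.3% of all tested. Untreated, 5 of the 48 and 2 of the 18 were above 0. For all tested probe sets only the share in the opposite direction is given here, 44.4% below 0. The difference between the 18 and the 48 was not tested.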

How the data were processed

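RNA of whole seedlings was hybridised to 12 Affymetrix ATH1 arrays, with the labels as the source of each array's group and number. The deposited table holds 1 linear intensity per probe set and array, which the authors had scaled, as the values show, to a 2% trimmed mean of 100.0 on each array. A genome build and the summarising software are not given in the sources used here. GEO's platform annotation gave each probe set its gene, and the TAIR10.1 gene table gave locus names and gene order.

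The 64 control probe sets were left out. Values under 14.4, the pooled 25th percentile, were set to it before log2. Probe sets whose mean over 12 arrays was under 29.1, the pooled 40th percentile, were left out, which left 13764. All 18 members passed, 5 of them with an untreated mean under 29.1, so they passed through their sucrose arrays. The median intensity of an array, 41.0 to 47.2, was close to the dim range, and the number of arrays limits the precision.

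Group means were fitted with limma 3.58.1 in R 4.3.3 (lmFit, eBayes) on all 12 arrays, with 8 residual degrees of freedom. Contrasts were two-sided, adjusted by Benjamini-Hochberg over 13764 probe sets and called at an adjusted p under 0.05. The fit was tested on simulated data for acn1-2 minus Col-7 with sucrose over 13764 probe sets: it recovered 2% of log2 changes of 0.25, 32% of 0.5, 80% of 1 and 100% of 2. The simulation used untreated Col-7 means, normal noise with each probe set's own residual spread, and changed probe sets drawn at random. With sucrose in Col-7 the 18 genes varied more than all tested probe sets (median coefficient of variation 20.4% against 9.28%). The shares recovered need not hold for the 18. The members and lists were chosen with earlier results of these data known. Values of every array were to be given for members called between lines, the 12 with the largest ratio, the 8 brightest with sucrose and the 3 on either side of each threshold, which left 1 gene, AT3G05600, that was added. Of the lists, the 2 largest changes each way were to be named. Alternatives were the floor, a pseudocount, the filter, normalization, array weights, the replicate block, arrays left out and the thresholds of the selection. Promoter sequence was not used here, so the motif search that had been planned was not run.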

Additional observations from a re-analysis of the deposited data

How the results depend on the processing

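The stricter filter on dim probe sets tested 15 of the 18 genes and every other alternative all 18. The medians of acn1-2 minus Col-7 over the genes tested kept their sign under each alternative run, from 0.04 to 0.20 with sucrose, from -0.31 to -0.19 untreated and from 0.22 to 0.43 for the difference of the steps. With sucrose 0 of the genes tested passed in limma under each alternative. Untreated, 2 passed in limma without replicate 3 of both untreated acn1-2 and Col-7 sucrose (AT4G38410, adjusted p = 0.023, and AT2G23910, 0.038). Without a floor 2 passed, both with values under 14.4. Of these AT5G62210 was lower in acn1-2 (log2 difference -2.31, limma adjusted p = 0.00045) and AT3G15650 was higher (1.17, 0.0054). Values below the floor have no order. With a pseudocount of 16, 1 passed (AT5G62210, 0.018). With each array left out in turn 0 to 1 passed, the 1 being AT2G23910 without replicate 2 of untreated acn1-2. Apart from AT3G15650, each of these untreated calls was lower in acn1-2. For the difference of the steps, 1 passed with array weights (AT2G23910, limma adjusted p = 0.034), 2 without both of those arrays (AT4G38410, 0.015, and AT2G23910, 0.035), 1 without a floor (AT5G62210, 0.0033), 1 with the pseudocount (AT5G62210, 0.025), and 0 with each array left out in turn. Over all alternatives the adjusted p of AT5G62210 ran from 0.00045 to 0.42 untreated and from 0.0033 to 0.50 for the difference of the steps, and that of AT4G38410 from 0.023 to 0.60 and from 0.015 to 0.68. For AT2G23910 it ran from 0.034 to 0.51 for the difference of the steps. The cause of these changes was not tested. The selection took 54 genes at a ratio of 2, 7 at a ratio of 3, and 18 to 28 with each array left out in turn, 28 without replicate 3 of untreated Col-7. SAG29 and the seed marker OLEO3 were not tested under the stricter filter. Counts of genes without overlap were recomputed under alternatives chosen after seeing the data, and with sucrose the count higher in acn1-2 ran from 1 to 11. Same-numbered arrays of different groups had correlated deviations above 0.1 in 3 of 18 pairs (range -0.10 to 0.14). However, 8 of 12 arrays correlated best with an array of their own number, though most arrays of the other groups carry a different one. These values do not settle whether the numbers pair the arrays, and the main fit did not pair them. With the replicate block 0, 0 and 0 genes passed in the 3 comparisons. Untreated values of 5 genes lie at the floor on at least 1 array, and 1 untreated acn1-2 array of AT2G23910 lies just above it. Line differences are poorly measured there.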
